A study of Apis mellifera with 12 samples.

Results

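Hbg3 and AGLU2 are genes of α-glucosidases in the honey bee, Apis mellifera, and their transcripts were followed in the antennae of workers doing different tasks. They were taken by name from a table of read counts for 12319 genes, which holds 1 row for each, so the members are 2 of 12319 genes, and both were among the 11271 genes with enough counts to be tested. Total RNA of antennae was sequenced on the DNBSEQ platform in 12 libraries, 3 for each of 4 groups of workers. Workers had just emerged from the cell, nursed brood, foraged, or were defenders, going by the group names. The labels give neither the ages and colonies of the bees nor the number of bees in a library, and they do not say what the defenders had been doing. A difference that goes with task and one that goes with age cannot be told apart in this design.

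α-Glucosidases cut glucose from the end of sugars such as sucrose and maltose. In the honey bee the enzyme encoded by Hbg3 is known as a product of the hypopharyngeal glands of the head, which workers add to nectar, so that its sucrose becomes the glucose and fructose of honey. The glands are known to change with work: in nurses they secrete the major royal jelly proteins, encoded by the Mrjp genes, and in foragers they secrete enzymes that act on sugar. AGLU2 encodes another α-glucosidase of the bee. In the RefSeq gene list of the Amel_HAv3.1 assembly, Hbg3 and AGLU2 are neighbours on the same linkage group with 0 genes between them, and AGLU2 has Hbg1 as its synonym. Another gene of the family, Hbg2 (synonym AGLU4), is on another linkage group.

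Library totals ran from 66708813 to 119703929 counts, and the smallest count of either member in a library was 1130. Counting error is therefore small beside the differences between libraries. Levels are given in CPM, the counts of a gene relative to the TMM-scaled size of its library, and each group is summarised as mean ± SD over its libraries (n = 3). Differences were tested with edgeR on the whole table, and adjusted p-values (Benjamini-Hochberg, BH) are over the 11271 genes tested, with a call at adjusted p under 0.05. The labels do not say whether libraries came from separate bees or colonies, so a p-value here reflects only how far these libraries spread, which may be technical. The 6 olfactory markers Or2, Or11, Obp1, Obp2, Obp4 and Obp5, which mark antennal tissue, had counts in every library. Their summed level was 17699 to 21441 CPM in newly emerged workers and 36193 to 38045 CPM in nurses. It was 35274 to 48095 CPM in foragers and 33602 to 37385 CPM in defenders. Nurses, foragers and defenders each had 5 of the 6 markers called higher than in newly emerged workers. Of all tested genes, 18.9%, 23.6% and 17.7% were called higher in nurses, foragers and defenders. In nurses and in foragers 1 marker was called lower, and in defenders 0. Of all tested genes, 20.7%, 24.4% and 16.7% were called lower in nurses, foragers and defenders. How far this difference in the markers enters the levels of the members was not tested. Hbg3 and AGLU2 are related genes, and the labels do not say to which gene a read was given when it matched more than 1.

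Hbg3 was lowest in newly emerged workers and highest in foragers. Its counts were 1823, 1572 and 2294 in newly emerged libraries 1, 2 and 3, which is 17.7, 23.3 and 24.6 CPM. In nurses it was at 130.3, 106 and 97.7 CPM. In foragers it was at 405, 419.7 and 345 CPM. In defenders it was at 224, 224 and 174 CPM. No library of 1 group fell into the range of another, so the 4 groups were fully separated, in the order newly emerged workers, nurses, defenders, foragers. The share of all tested genes that separate the groups in this way was not computed. The group means were 21.8 ± 3.67, 111 ± 16.9, 208 ± 28.7 and 390.0 ± 39.5 CPM in that order. The SD was between 10.1% (foragers) and 16.8% (newly emerged workers) of the group mean.

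AGLU2 was also lowest in newly emerged workers, but its levels in foragers and defenders overlapped. Its counts in newly emerged libraries 1, 2 and 3 were 1454, 1130 and 1488, which is 14.1, 16.7 and 15.9 CPM. In nurses it was at 81.4, 62.3 and 69.5 CPM. In foragers it was at 94.4, 128 and 113 CPM. In defenders it was at 93.0, 116 and 104 CPM. Every nurse library lay above every newly emerged library, and every forager and defender library lay above every nurse library. For this order, too, the share of all tested genes was not computed. The group means were 15.6 ± 1.35 CPM in newly emerged workers, 71.1 ± 9.67 in nurses, 104 ± 11.4 in defenders and 112 ± 16.9 in foragers. The last pair of neighbours in this order differed by less than their spread. The plot of CPM by group shows both genes.

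**Figure D1:**
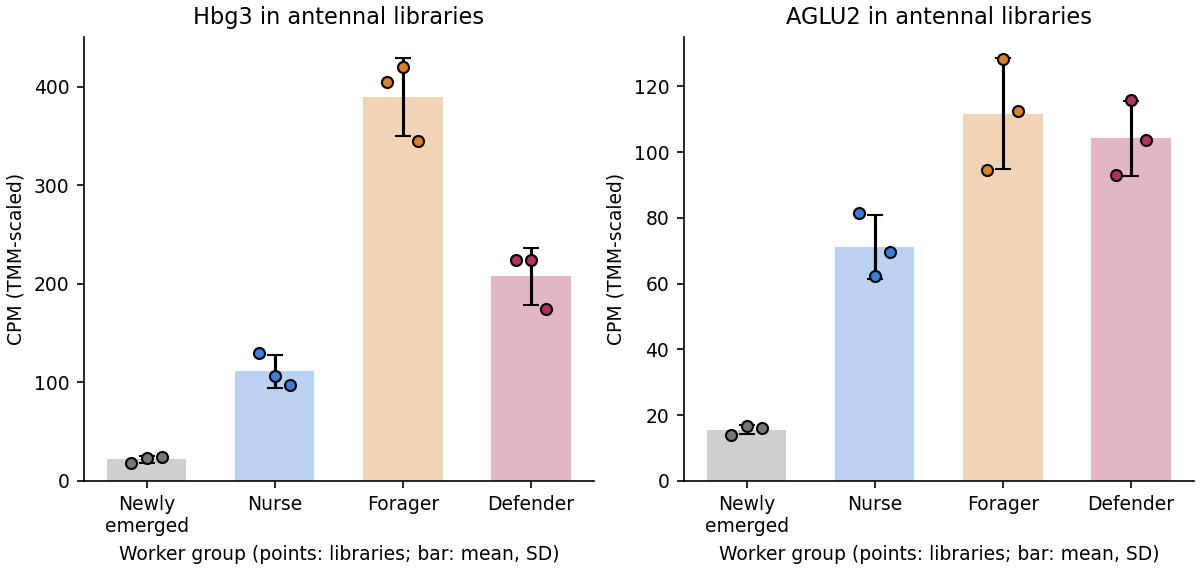
CPM (TMM-scaled, linear axis from 0) of Hbg3 and AGLU2 in the antennal libraries of 4 worker groups; points are libraries, bars are group means and error bars are SD (n = 3). Hbg3 rises from 21.8 CPM in newly emerged workers to 390.0 in foragers with defenders at 208, while AGLU2 is at 112 in foragers and 104 in defenders.

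When all 4 groups were tested together both members passed, Hbg3 with adjusted p = 3.83e-08 and AGLU2 with adjusted p = 1.58e-07. Of all tested genes, 48.5% passed that test, so passing it is common in these libraries. The spread between libraries of a group beyond counting noise was estimated by edgeR as a coefficient of variation. It was 0.138 for Hbg3 and 0.125 for AGLU2, near the median of 0.132 over all tested genes. The pairwise comparisons that follow share libraries with each other and are not independent.

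Against newly emerged workers, both α-glucosidase genes rose in all 3 other groups, the comparisons that set workers just out of the cell against workers with a task. In nurses Hbg3 was 5.10-fold higher (95% interval 4.00 to 6.50, log2 fold change 2.35, SE 0.16, adjusted p = 9.71e-07). AGLU2 was 4.56-fold higher in nurses (95% interval 3.69 to 5.64, log2 fold change 2.19, SE 0.14, adjusted p = 5.99e-07). The intervals of the 2 genes overlapped, and of all tested genes 18.9% were called higher in nurses. In that comparison 1.96% of tested genes had a larger absolute log2 fold change than Hbg3 and 2.31% a larger one than AGLU2.

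In foragers the distance from newly emerged workers was larger, and more so for Hbg3. Hbg3 was 17.9-fold higher in foragers (95% interval 13.8 to 23.2, log2 fold change 4.16, SE 0.17, adjusted p = 1.30e-08), the 36th largest rise among the 11271 genes. AGLU2 was 7.17-fold higher (95% interval 5.78 to 8.91, log2 fold change 2.84, SE 0.14, adjusted p = 5.32e-08). Of all tested genes, 23.6% were called higher in foragers than in newly emerged workers. In defenders Hbg3 was 9.52-fold higher than at emergence (log2 fold change 3.25, SE 0.17, adjusted p = 6.32e-08) and AGLU2 6.69-fold higher (log2 fold change 2.74, SE 0.14, adjusted p = 7.33e-08). There 17.7% of tested genes were called higher.

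Foragers against nurses set foraging against brood care, and here the members differed in size of change. Hbg3 rose 3.50-fold from nurses to foragers (95% interval 2.77 to 4.44, log2 fold change 1.81, SE 0.16, adjusted p = 0.000128), the 40th largest rise and the 6th smallest p of all genes tested. AGLU2 rose 1.57-fold (95% interval 1.28 to 1.92, log2 fold change 0.65, SE 0.13, adjusted p = 0.0188). Both members were thus called higher, against 1.91% of all tested genes. The AGLU2 call did not hold without nurse library 2 (adjusted p = 0.0941), without forager library 2 (adjusted p = 0.0629) or when only these 2 groups were fitted (adjusted p = 0.0897).

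In defenders both members were above nurses as well. Hbg3 was 1.87-fold higher (95% interval 1.48 to 2.35, log2 fold change 0.90, SE 0.15, adjusted p = 0.00986), and the call held without each of the 12 libraries in turn. AGLU2 was 1.47-fold higher (95% interval 1.20 to 1.79, log2 fold change 0.55, SE 0.13, adjusted p = 0.0327). Of all tested genes 4.63% were called higher in defenders than in nurses. The AGLU2 call did not hold without nurse library 2 or 3 or without defender library 2 or 3 (adjusted p = 0.0976, 0.0860, 0.121 and 0.104), nor with upper-quartile factors or with only these 2 groups fitted (adjusted p = 0.0521 and 0.0536).

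Between defenders and foragers, Hbg3 had the lower mean in defenders. All 3 defender libraries, at 174 to 224 CPM, lay below all 3 forager libraries, at 345 to 419.7 CPM. The share of all tested genes that separate these 2 groups was not computed. The defender level of Hbg3 was 0.532 of the forager level (95% interval 0.423 to 0.671, log2 fold change -0.91, SE 0.15). With adjusted p = 0.0544 it missed the threshold in the main fit, which does not use the library numbers as pairs. In this comparison edgeR called 0 of 11271 genes (0%), while 2705 had an unadjusted p under 0.05 and DESeq2 called 1273. The value 0.0544 was the smallest adjusted p that edgeR gave to any gene, and Hbg3 had the 9th smallest unadjusted p. Hbg3 passed with DESeq2 (adjusted p = 5.09e-05), with the library number as a block (log2 fold change -0.91, adjusted p = 0.0256), when only these 2 groups were fitted (adjusted p = 0.0108), and without nurse library 1 or 3 (adjusted p = 0.0347 and 0.00530). AGLU2 had a defender level of 0.932 of that in foragers (95% interval 0.762 to 1.14, log2 fold change -0.10, adjusted p = 0.68), an interval that leaves room for a decrease to 0.762 or an increase to 1.14 of the forager level.

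**Figure D2:**
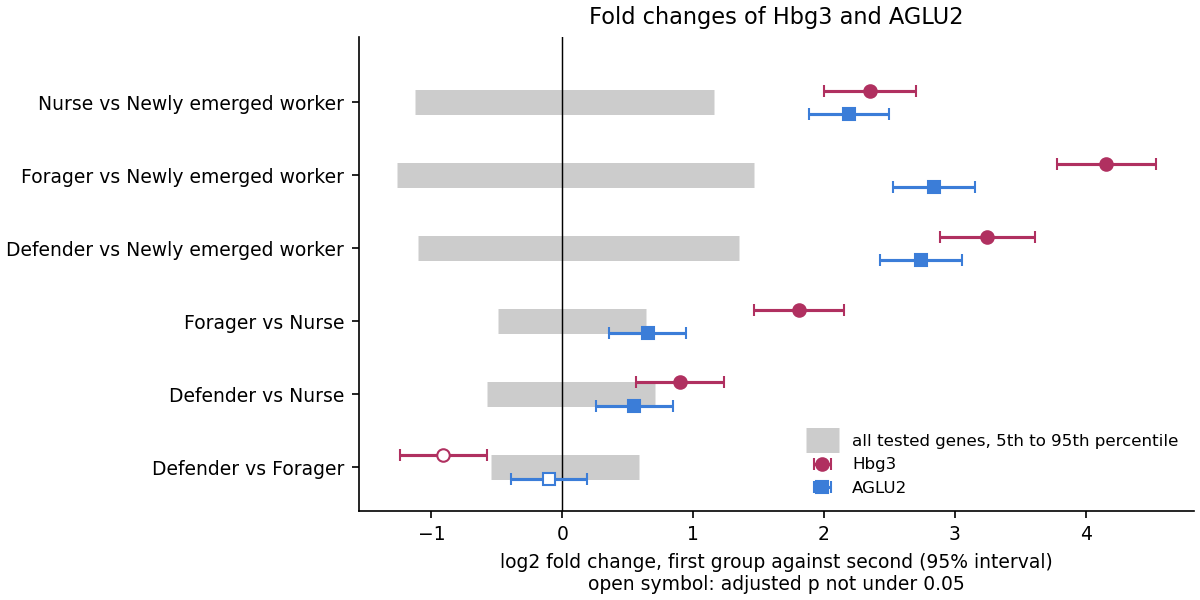
log2 fold change of Hbg3 and AGLU2 in the 6 comparisons, first group against second, with 95% intervals from edgeR; filled symbols have an adjusted p under 0.05, and grey bars span the 5th to 95th percentile of all tested genes. Hbg3 lies outside the grey bar in every comparison, and AGLU2 lies inside it in defenders against nurses (0.55) and against foragers (-0.10).

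The members could also be set against each other within each library, where library scaling has no part. The number of Hbg3 counts per AGLU2 count was 1.25, 1.39 and 1.54 in newly emerged libraries 1, 2 and 3. It was 1.60, 1.70 and 1.40 in nurses. It was 4.29, 3.27 and 3.07 in foragers. It was 2.41, 1.94 and 1.68 in defenders. Since transcript lengths were not used, the ratio has meaning between groups and not as a comparison of how abundant the 2 transcripts are. The ratio differed among groups in an exact permutation test of the F statistic of its log2 value over all 369600 assignments of libraries to groups (p = 0.00039). That test did not use the library numbers. With groups permuted only within a library number, over 13824 assignments, the permutation test gave p = 0.00347.

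The ratio set foragers apart from the 3 other groups. Its mean was 1.40 ± 0.144 in newly emerged workers, 1.57 ± 0.151 in nurses, 2.01 ± 0.368 in defenders and 3.54 ± 0.655 in foragers (n = 3 each). Forager libraries did not overlap with those of any other group. The ratio in foragers was 2.24 times that in nurses, and the ratio in defenders was 0.567 of that in foragers (ratios of geometric means). Nurses and newly emerged workers overlapped, with a ratio of 1.12 between them, and so did defenders and nurses, with 1.27. Defenders and newly emerged workers did not overlap, with 1.43. With 3 libraries against 3, an exact two-sided permutation test cannot give a p below 0.1, which is what each pair of groups without overlap gave.

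**Figure D3:**
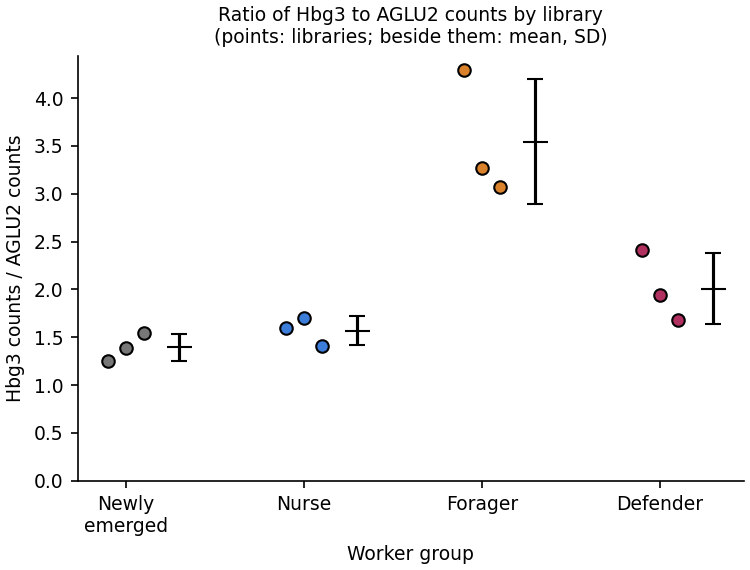
Counts of Hbg3 divided by counts of AGLU2 in each library (linear axis from 0), by worker group; points are libraries, and the mark beside them gives the mean and SD (n = 3). The 3 forager libraries, at 3.07 to 4.29, lie above all others, which lie at 1.25 to 2.41.

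Hbg2, the other gene of the family found by symbol or synonym, did not follow the members. Genes of the family without such a name were not looked for, so the family here means these 3 genes. Hbg2 had 29 to 116 counts in a library, and its group means were 0.604 ± 0.171 CPM (newly emerged), 0.935 ± 0.240 in nurses, 0.625 ± 0.232 in foragers and 0.469 ± 0.0830 in defenders. It passed in none of the 6 comparisons with edgeR. Its 1 comparison with an unadjusted p under 0.05 was defenders against nurses (log2 fold change -1.01, adjusted p = 0.0682), which was also the 1 that DESeq2 called (adjusted p = 0.0255). By edgeR, then, 2 of the 3 family genes found by name rose in each comparison against newly emerged workers and against nurses. These were Hbg3 and AGLU2, the members themselves. Against newly emerged workers, 18.9% of all tested genes rose in nurses, 23.6% in foragers and 17.7% in defenders. Against nurses, 1.91% rose in foragers and 4.63% in defenders. From nurses to foragers the median log2 fold change of the 3 genes was 0.65, beside 0.01 over all tested genes. That median is the value of AGLU2 itself, and Hbg2 was at -0.57 (adjusted p = 0.381).

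Genes next to the members on the linkage group differed from each other. The span of LOC724389 holds both Hbg3 and AGLU2, and without knowledge of strand and exon use its reads may not be fully separated from theirs. LOC724389 was at 4.68 ± 1.44 CPM at emergence, 5.19 ± 0.470 in nurses, 6.32 ± 2.26 in foragers and 5.35 ± 0.437 in defenders, and it did not pass when all groups were tested together (adjusted p = 0.461). LOC409787, the nearest protein-coding gene before Hbg3, fell from 606 ± 19.6 CPM in newly emerged workers to 326 ± 108 in foragers (log2 fold change -0.90, adjusted p = 0.00443). LOC113218868, a long non-coding RNA gene next to AGLU2, had only 2 to 37 counts in a library. It had 10, 2 and 4 counts in newly emerged workers, 9, 3 and 4 in nurses, 17, 37 and 28 in foragers and 8, 16 and 20 in defenders. Its group means had the order of those of Hbg3, at 0.0564 CPM (newly emerged), 0.0596 (nurses), 0.141 (defenders) and 0.299 (foragers). It rose from nurses to foragers (log2 fold change 2.27, adjusted p = 0.0257), with every forager library above every nurse library. There 1.91% of all tested genes rose. LOC113218868 was also higher in foragers than in newly emerged workers (log2 fold change 2.30, adjusted p = 0.00261), where 23.6% rose. It was not called in nurses or defenders against newly emerged workers (adjusted p = 0.978 and 0.0912). These neighbours were looked at after the members' values were known.

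Transcripts of the hypopharyngeal glands, the known source of Hbg3 protein, were looked for with the 7 royal jelly protein genes Mrjp1 to Mrjp7. These mark the glands of nurses and, by the background above, are not markers of the glands of foragers, so a low level in foragers does not show whether RNA of those glands was present. Their summed level was 16.1, 14.0 and 11.8 CPM in newly emerged libraries 1, 2 and 3. It was 2349.6, 569.6 and 294 CPM in nurses. It was 22.5, 11.9 and 86.7 CPM in foragers. It was 70.8, 49.4 and 107 CPM in defenders. All 7 had counts in every library. From newly emerged workers to nurses all 7 rose, as did both members and 18.9% of all tested genes. Against newly emerged workers, 4 of the 7 also rose in defenders (median log2 fold change of the 7 3.71), where 17.7% of all tested genes did, and 2 rose in foragers (median 2.72), where 23.6% did. The number in defenders was 2 without newly emerged library 2 or defender library 3, 1 without newly emerged library 3 and 7 when only the 2 groups were fitted. The number in foragers was 1 without newly emerged library 1, 2 or 3 or forager library 3 and with the library number as a block, and 4 without nurse library 1 or forager library 2 and with DESeq2. From nurses to foragers 5 of the 7 fell, against 2.1% of all tested genes, while both members rose. The number was 3 without nurse library 1 and with the library number as a block, 2 without forager library 1 or 2, and 1 when only these 2 groups were fitted. From nurses to defenders 3 of the 7 fell, against 3.11% of all tested genes, and 1 when defender library 1, 2 or 3 was left out and 5 with DESeq2.

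Within nurses the 3 libraries had the same order for Hbg3 (130.3, 106 and 97.7 CPM) as for the summed royal jelly genes, and in each of the other groups the order for Hbg3 was the opposite one, with defender libraries 1 and 2 both at 224 CPM after rounding. From nurse library 3 to nurse library 1 the royal jelly genes differed 7.98-fold, Hbg3 1.33-fold and AGLU2 1.17-fold. AGLU2 did not have the order of the royal jelly genes in any group. The part of RNA from gland cells in the levels of the members was not tested. Of 5 fat body markers, Vg and the hexamerin genes, 4 were tested, and Hex70c was at 0 in 1 library. Their summed level was 35.2 to 49.4 CPM in newly emerged workers, 42.6 to 229 in nurses, 12.2 to 18.9 in foragers and 18.3 to 42.8 in defenders. The hemocyte marker PPO was at 21.8 to 24.3, 26.4 to 48.8, 9.25 to 9.99 and 10.4 to 12.3 CPM in the same order of groups. In bulk antennae, more cells of a type and more RNA per cell cannot be told apart.

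**Figure D4:**
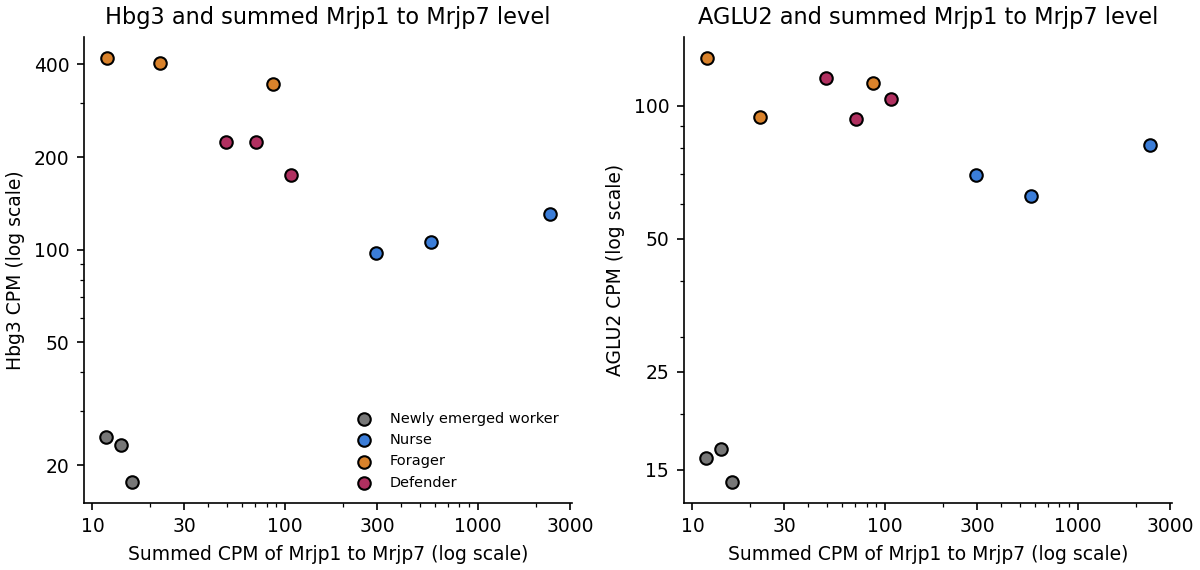
CPM of Hbg3 and of AGLU2 (log scale) against the summed CPM of the royal jelly protein genes Mrjp1 to Mrjp7 (log scale) in each library, coloured by worker group. Nurse libraries spread from 294 to 2349.6 CPM of these genes at 97.7 to 130.3 CPM of Hbg3, and forager libraries with 11.9 to 86.7 CPM of them have the highest Hbg3.

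Genes with the most similar pattern were ranked by Pearson's r of log2 CPM with each member over the 12 libraries, among 8222 other genes with a mean of at least 5 CPM. The libraries fall into groups, with newly emerged workers apart, so r is given again over the 9 other libraries, and it stands as a description. For Hbg3 the nearest genes with a symbol were Cat, which encodes catalase (r = 0.976 over 12 and 0.867 over 9), and Dat, the dopamine transporter gene (0.973 and 0.903). Next came the odorant binding protein gene Obp16 (0.970 and 0.856), the yellow-family gene Y-f (0.965 and 0.798) and AGLU2 itself (0.964 and 0.824). Of all 8222 genes AGLU2 ranked 33rd. The top 3 of any name were LOC100578777, LOC410626 and LOC724642, with r = 0.983, 0.981 and 0.979 over 12 libraries. Over 9 libraries their r was 0.941, 0.919 and 0.894.

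Over the 12 libraries AGLU2 had closer neighbours in pattern than Hbg3 did. LOC724114 was the nearest of any name (r = 0.998 over 12 libraries and 0.971 over 9). LOC102653945 (0.994 and 0.923) and LOC551089 (0.991 and 0.862) followed. Over 9 libraries the last of these was not closer to AGLU2 than LOC724642 was to Hbg3 (0.894). LOC724114 went from 149 ± 17.4 CPM in newly emerged workers to 1334 ± 161 in nurses, 2277 ± 363 in foragers and 2185 ± 371 in defenders. Among genes with a symbol the nearest over 12 libraries were Mrjp8 and Mrjp9, the ancestral-type genes of the royal jelly protein family (0.989 and 0.989). Obp19 (0.988), Obp16 (0.987) and Cat (0.979) came next. Over 9 libraries r was 0.913, 0.878, 0.864, 0.838 and 0.868 for these genes in that order. Mrjp9 was at 78.9 ± 2.98 CPM at emergence, 276 ± 19.0 in nurses, 409.8 ± 85.7 in foragers and 449 ± 91.9 in defenders. Hbg3 ranked 101st among the 8222 genes for likeness to AGLU2. When group means were taken off, r between the deviations of the members over the 12 libraries was 0.428.

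**Figure D5:**
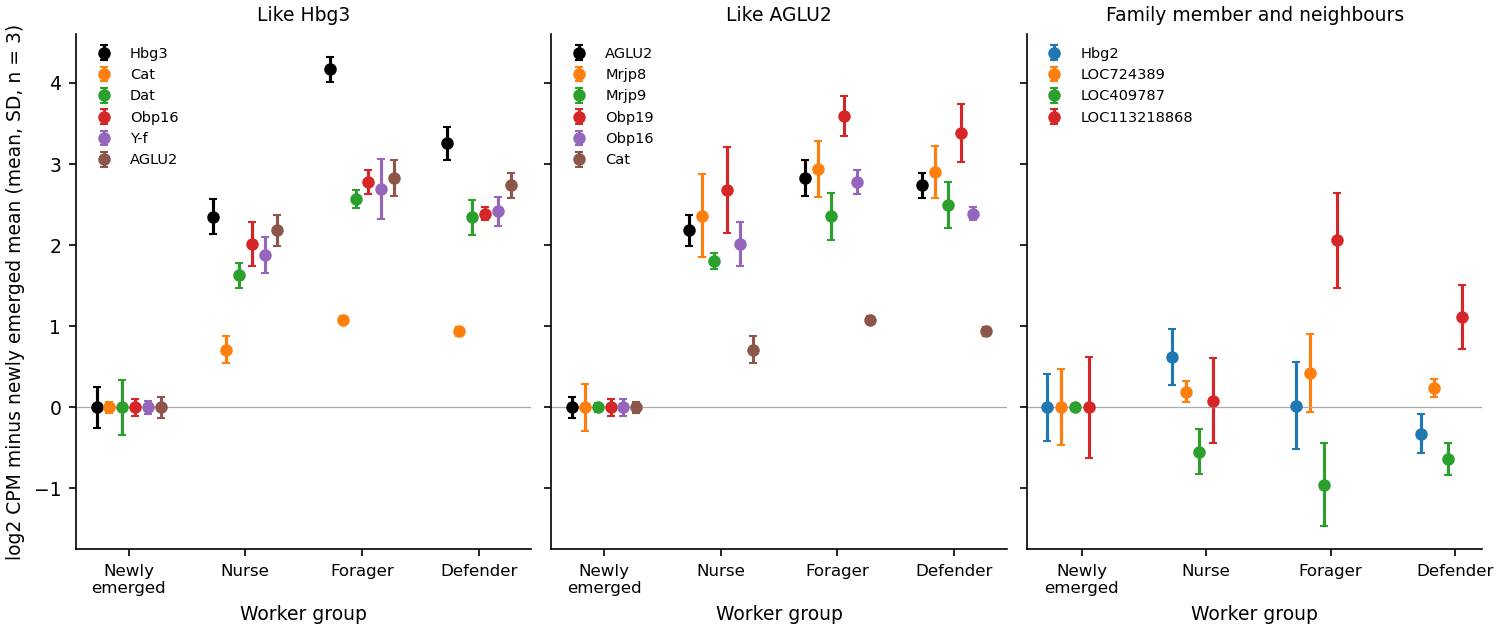
log2 CPM of each gene minus its mean in newly emerged workers (mean and SD, n = 3 libraries) by worker group, for Hbg3 and the 5 genes with a symbol most like it, for AGLU2 and the 5 most like it, and for Hbg2 with the neighbouring genes. The genes with a symbol like Hbg3 stay below 3 in foragers, where Hbg3 is above 4, and Cat, which has the highest r of these, stays near 1.

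Few other genes of sugar handling have a symbol in the table. Tret1, a trehalose transporter gene, had group means of 771 ± 36.5 (newly emerged), 613 ± 121 (nurses), 731 ± 26.7 (foragers) and 743 ± 98.9 CPM (defenders). It passed in 0 of 6 comparisons with edgeR and with DESeq2, and in 1 at unadjusted p under 0.05, nurses against newly emerged workers (adjusted p = 0.0693). Of 3 genes of insulin and adipokinetic hormone signalling, which govern the use of sugar stores in insects, 1 rose in nurses, in foragers and in defenders against newly emerged workers, where 18.9%, 23.6% and 17.7% of all tested genes rose, and 1 fell in defenders, where 16.7% of all tested genes fell. A count of 1 in 3 genes is too small to be set apart from those shares. The insulin receptor gene InR-2 was the one that rose, from 10.5 ± 0.818 CPM to 18.0 ± 4.95 in nurses, 18.7 ± 2.26 in foragers and 17.8 ± 1.82 in defenders (adjusted p = 0.00559, 0.00271 and 0.00624). Akhr, the adipokinetic hormone receptor gene, fell from 1.69 ± 0.330 CPM to 0.801 ± 0.463 in defenders (adjusted p = 0.0458). With DESeq2 it was also called lower in nurses and foragers (adjusted p = 0.0391 and 0.0403). The insulin-like peptide gene ILP-2 had means of 0.402 ± 0.0297 CPM at emergence and 0.590 ± 0.0747 in foragers (adjusted p = 0.0594). None of the 3 passed in a comparison among nurses, foragers and defenders, where the number was also 0 at unadjusted p under 0.05 and with DESeq2. In the 5 deposited tables of splice events, 0 of 491 events were in Hbg3 or AGLU2.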

How the data were processed

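The authors deposited a table of raw counts, whole numbers per gene and library. They also deposited 5 tables of splice events that give inclusion levels as a fraction. The fields of the labels on growth, extraction and processing describe a chromatin assay on human cells and were not used. Not given in the sources used here are the aligner, counter, build and strand use of the bee libraries. The groups and the library numbers came from the sample titles, which hold a number after the group name and a Rep number. The first was used; the Rep number differs from it in library 1 of nurses and of foragers. Splice tables served only to look for events in the members.

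Of 12319 genes, edgeR's filterByExpr kept 11271, with 99.998% of the counts. TMM-scaled counts were fitted with edgeR 4.0.16 in R 4.3.3 (glmQLFit with robust = TRUE, glmQLFTest, two-sided, 4 group means, 8 residual degrees of freedom), and BH adjustment ran over all tested genes within a comparison. A standard error is the size of the log2 fold change over the square root of F. log2 CPM had a prior count of 2. Names were matched for 12167 genes to the RefSeq list of Amel_HAv3.1, also by synonym; sugar-processing enzymes other than the α-glucosidases, and sugar receptors, had no match by symbol and are not analysed here. DESeq2 1.42.0, other size factors, no filter, fits of only 2 groups, a replicate block and leaving out each library were tried.

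By deviations from the group means over all tested genes, all 9 same-numbered pairs among newly emerged workers, foragers and defenders correlated above 0.1 (0.18 to 0.42), so in these 3 groups the numbers were taken to pair libraries. The titles name no batch or day behind a number. With nurses 4 of 9 did (-0.36 to 0.29), so nurse numbers were not taken to pair. The main edgeR fit and the main permutation test of the ratio did not use the pairing. It entered only through the replicate block, which also blocks nurses by number.

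The members and gene lists were chosen with earlier results of these data known. Named genes are the members, their family, the 5 genes with a symbol and 3 of any name most like each member, and called genes of the sugar lists, to which the neighbouring genes and ILP-2 and Tret1 were added after their values were seen. Libraries of a group differed by more than counting noise (chi-square per gene 50.5 to 322).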

Additional observations from a re-analysis of the deposited data

How the results depend on the processing

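Of 248 values of the members under alternatives, 233 kept their direction and their side of the threshold; both members' calls against newly emerged workers and the Hbg3 calls against nurses held under every alternative run. The Hbg3 difference of defenders from foragers, -0.91 on the log2 scale, passed with DESeq2 (-0.92), with only the 2 groups fitted (-0.91) and with the replicate block (-0.91, adjusted p = 0.0256), and ran from -0.99 to -0.82 when a library was left out (adjusted p = 0.0053 to 0.187); under the first 3 of these 1 family gene was called in place of 0, and 0 to 1 without a library. AGLU2 in defenders against nurses did not pass with upper-quartile factors (0.47) or only the 2 groups (0.54), which left 1 called family gene, and ran from 0.46 to 0.66 without a library, with 1 to 3 family genes. AGLU2 in foragers against nurses did not pass with only the 2 groups (0.65; 1 family gene) and ran from 0.54 to 0.76 without a library, with 1 to 2 family genes. AGLU2 in defenders against foragers, which was not called, ran from -0.21 to 0.01, the latter (0.0095) without forager library 2. The cause of these changes was not tested. In the exact permutation test, the F statistic of the ratio ran from 18.0 to 31.4 without a library (p = 0.00013 to 0.00247) and was 25.0 with the replicate block (p = 0.00347).

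Of 18 pairs of libraries with the same number in different groups, 13 had deviations that correlated above 0.1, against 6 of 36 pairs with different numbers. The replicate block changed no other call of the members than that of Hbg3 in defenders against foragers. Upper-quartile factors moved the median log2 change over all genes by 0.12 (nurses) and 0.15 (foragers against newly emerged workers) and by -0.10 (defenders against foragers). Calls that were higher then went from 47.7% to 63.9%, from 49.1% to 65.2% and, for defenders against nurses, from 59.9% to 41.1%. Calls over all genes were 452 for foragers against nurses (885 with DESeq2, 111 with only the 2 groups, 176 to 532 without a library), 872 for defenders against nurses (1841, 431 and 99 to 1428; 1466 with the replicate block) and 0 for defenders against foragers (1273, 876 and 0 to 1161; 667 with the block).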
